A study of Mus musculus with 11 samples.

Results

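The histone cluster genes were followed here as 56 probe sets of 11 Affymetrix whole-transcript arrays of mouse thymus. A probe set was taken as a member when the gene symbol field of the platform annotation held a histone symbol of set form. In the older naming these were Hist1h to Hist4h, in the current one H1f, H2ac, H2bc, H3c or H4c and a number. The whole table held 28939 probe sets that were tested. Of the 56 members, 30 carried 1 symbol and 26 carried several, because near-identical histone genes share their probes. A probe set with several symbols was kept as 1 unit and its genes cannot be told apart. The members held 66 distinct histone symbols, of which 36 were read only through shared probe sets. There were 38 distinct symbol fields, and 22 members lay in 4 fields that several members repeated with Pearson correlations of at least 0.993 over the arrays, so the 56 members are far from independent. By class there were 8 probe sets of linker histone H1, 4 of H2A, 16 of H2B, 13 of H3, 12 of H4 and 3 that mixed classes. Of the 66 symbols, 53 lie on chromosome 13, 10 on chromosome 3, 2 on chromosome 6 and 1 on chromosome 15 in RefSeq's GRCm38.p6. Those on chromosomes 6 (H1f8 and H1f10) and 15 (H1f7) have no older Hist name. They became members through the H1f form and are not genes of the histone clusters. For H1f0, the replacement linker histone, no probe set was used here.

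All mice were FVB and all carried the activator EμSR-tTA and the Rosa26LOXPEGFP reporter. EμSR-tTA makes a tetracycline-controlled activator in blood cells, which switches on Teto-MYC, an oncogene transgene, and Teto-Cre, a recombinase that cuts at loxP sites. Normal thymocytes (n = 3) carried Teto-Cre and Dnmt3b+/+ and no MYC transgene, and were taken at 24 days. Wild-type lymphomas (n = 3) carried Teto-MYC and the floxed allele Dnmt3bF/F without Teto-Cre, so that this gene for a DNA methyltransferase was left uncut. Dnmt3b-deficient lymphomas (n = 3) carried Teto-MYC and Teto-Cre and are labelled Dnmt3b-/-, as are the pre-tumor thymocytes (n = 2), taken at 24 days. Lymphomas were taken when the disease could be seen. Pre-tumor thymi were sorted for EGFP+ cells, lymphomas were not, and the labels leave unclear if normal thymi were. There was no pre-tumor group with intact Dnmt3b, so MYC, Dnmt3b genotype and sorting cannot be told apart between pre-tumor and normal samples. Cre goes with the Dnmt3b genotype between the lymphomas. The labels call the samples of a group biological replicates.

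Each array was made from 300 ng of total RNA. Values are deposited log2 levels with a floor at 3.32, and the highest value of an array lay between 13.7 and 13.9. Of all values of each array, including probe sets left out of the tests, 23.6% to 25.7% sit at the floor. Levels are relative to the rest of the RNA on an array, so a change in the RNA content of a cell is not visible in them. In 54 of the 56 members all 11 arrays lay above the floor, H2ac8 and H3c7 touched it on some arrays, and none lay at it on all. The Dnmt3b probe set read 5.22, 5.31 and 5.30 in the normal samples, 5.36, 5.59 and 5.70 in the wild-type lymphomas, 5.26, 5.49 and 5.40 in the Dnmt3b-deficient lymphomas and 5.07 and 5.24 in the pre-tumor samples. The lymphoma groups overlapped on it (difference -0.17, limma adjusted p = 0.899). The sources used here do not place its probes relative to the deleted part, so it does not check the genotype labels, which are used as given.

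Replication-dependent histones package newly made DNA, and their genes are transcribed mainly in S phase, when DNA is copied. Their genes lie in clusters and have no introns, and their mRNAs end in a stem-loop in place of a poly(A) tail. The factor Npat, switched on by cyclin E and Cdk2, drives their transcription, the U7 small nuclear RNA guides the cut that forms the end, and the stem-loop binding protein Slbp carries the mRNA through processing, translation and decay. H2A, H2B, H3 and H4 form the nucleosome core, and H1 binds the linker DNA between nucleosomes. Thymocytes divide heavily at some stages and rest at others, and MYC pushes cells towards growth and division.

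The promoters of 5 members that later results turn on show how alike and how different the control regions of these genes are. Each run below gives the 250 bases before the RefSeq start site (assembly GRCm38.p6), 5′ to 3′ on the gene's own strand, with capitals marking the TATA box letters TATAAA, the CCAAT box letters CCAAT and the octamer letters ATGCAAAT on either strand. H1f1 (chr13:23763418-23763667, + strand) and H1f2 (chr13:23738557-23738806, + strand) are linker histone genes, H2ac4 (chr13:23750838-23751087, + strand), H2bc14 (chr13:21721794-21722043, + strand) and H4c4 (chr13:23581318-23581567, + strand) are core histone genes.
H1f1: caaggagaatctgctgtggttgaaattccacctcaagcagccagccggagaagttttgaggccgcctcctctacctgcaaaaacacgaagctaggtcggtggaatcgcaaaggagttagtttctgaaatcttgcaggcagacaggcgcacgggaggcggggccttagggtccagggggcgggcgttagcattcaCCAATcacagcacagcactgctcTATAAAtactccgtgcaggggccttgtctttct
H1f2: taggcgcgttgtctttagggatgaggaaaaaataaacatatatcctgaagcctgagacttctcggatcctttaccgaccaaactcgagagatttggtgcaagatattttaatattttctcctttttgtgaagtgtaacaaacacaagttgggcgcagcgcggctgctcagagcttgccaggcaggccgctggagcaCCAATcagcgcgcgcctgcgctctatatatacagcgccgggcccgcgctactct
H2ac4: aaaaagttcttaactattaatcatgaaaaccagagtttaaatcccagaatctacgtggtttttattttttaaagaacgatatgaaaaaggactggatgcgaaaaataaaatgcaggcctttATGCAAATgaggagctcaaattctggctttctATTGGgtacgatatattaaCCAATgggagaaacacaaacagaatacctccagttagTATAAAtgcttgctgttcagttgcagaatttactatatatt
H2bc14: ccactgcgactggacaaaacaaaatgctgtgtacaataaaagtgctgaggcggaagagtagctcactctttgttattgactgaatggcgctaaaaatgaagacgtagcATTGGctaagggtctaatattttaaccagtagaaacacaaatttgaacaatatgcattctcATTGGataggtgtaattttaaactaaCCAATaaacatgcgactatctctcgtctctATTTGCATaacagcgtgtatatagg
H4c4: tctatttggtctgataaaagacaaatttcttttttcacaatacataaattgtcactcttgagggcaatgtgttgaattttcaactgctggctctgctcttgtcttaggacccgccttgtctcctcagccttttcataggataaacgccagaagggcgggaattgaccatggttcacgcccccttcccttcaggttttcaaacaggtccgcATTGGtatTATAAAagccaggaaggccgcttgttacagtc

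Counted back from the start site, H1f1 had TATAAA from base -33 and CCAAT from base -56, the usual order of these elements. H1f2 had CCAAT from base -54 and no TATAAA. H2ac4 carried all 3 motifs, with the octamer farthest out at base -129. In H2bc14 the octamer stood on the opposite strand at base -25, with CCAAT at bases -142 and -81 on the opposite strand and at base -55 on its own. H4c4 had TATAAA at base -32 and CCAAT on the opposite strand at base -40.

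Over all members, RefSeq promoters were found for 61 of the 66 symbols (62 promoters of 300 bases, 250 before and 50 after the start). TATAAA stood in 54.8% of them on either strand, beside 13.6% of the 32841 promoters of the table. CCAAT stood in 83.9% beside 37.4%, and the octamer, the site of the Oct factors and known from H2B promoters, in 21% beside 1.74%. The E-box letters CACGTG, the sequence that MYC and its partner Max bind, matched none of the 62 and 7.15% of all promoters. The median number of CG pairs was 10.5 beside 7.0. The classes differed among themselves: CCAAT was in every one of the 17 H2A, 15 H2B and 10 H3 promoters but in 27.3% of the 11 H4 promoters, and the octamer was in 46.7% of H2B and 35.3% of H2A promoters and in no H1, H3 or H4 promoter. These are matches of letters, described without a test. Of the single-symbol members with a promoter, the 11 that were lower in all 3 comparisons with normal thymocytes held TATAAA in 54.5% and CCAAT in 81.8%, and the 8 that passed in none held them in 50% and 87.5%.

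**Figure D1:**
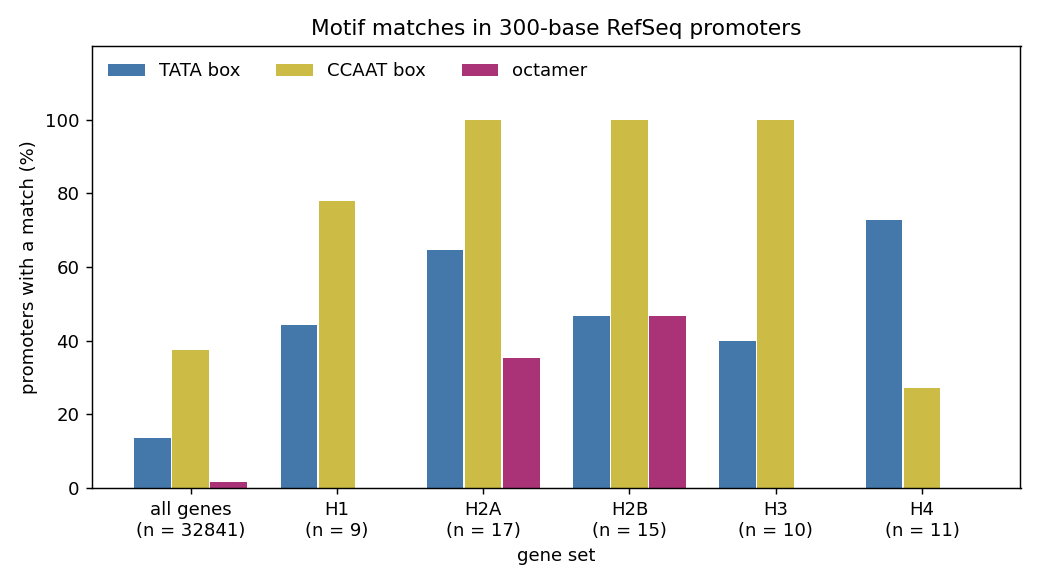
Share of 300-base RefSeq promoters (y axis, percent) with at least 1 match on either strand, for all genes of the table and for the histone promoters by class (x axis, with the number of promoters); blue bars are TATAAA, yellow bars CCAAT and purple bars the octamer ATGCAAAT. CCAAT reaches 100% in H2A, H2B and H3 and 27.3% in H4, and the octamer appears in H2A and H2B only among the histone classes.

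Histone genes were lower in each of the 3 MYC-transgenic groups than in the normal samples. In wild-type lymphomas 41 of 56 members fell and none rose (limma, Benjamini-Hochberg adjusted p under 0.05 over all tested probe sets, the threshold used throughout), beside 10.3% of all tested probe sets that fell and 9.58% that rose. In Dnmt3b-deficient lymphomas again 41 fell and none rose, beside 10.5% and 9.70%. In pre-tumor thymocytes the count was likewise 41 and none, beside 9.88% and 9.69%. The 41 make up 73.2% of the members in each case. The median difference over the members was -1.12 in the wild-type lymphomas, a 2.17-fold lower level, -0.92 in the Dnmt3b-deficient lymphomas (1.89-fold) and -0.95 in the pre-tumor samples (1.93-fold), beside medians over all tested probe sets of 0, 0 and -0.02. The groups did not overlap, with every normal sample above every other, for 48, 44 and 52 members, beside 18.9%, 17.2% and 27.3% of all probe sets. All 3 comparisons use the same normal samples and are therefore not independent of each other. In bulk samples, fewer cells of a type and less RNA per cell cannot be told apart.

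Because shared probe sets repeat, the count was also taken over the single-symbol members alone: 16 of 30 fell in each comparison and none rose, which is 53.3%. With each repeated symbol field averaged into 1 unit, an alternative chosen after seeing the data, 23 of 38 units fell in each. A fit of just the 2 groups of a comparison gave a pre-tumor count of 18. Of the named values followed through the alternatives, this setting lost the pre-tumor calls of H1f5, H2ac1, H2ac15, H2bc14, H2bc18, H4c9, the brightest H3 probe set and the probe set of H2bc6 and H1f4. It also lost the calls of H2ac4, H2ac15, H2bc14 and H4c4 in the Dnmt3b-deficient lymphomas, all at adjusted p-values between 0.0503 and 0.104. Other calls described below were not followed singly, among them the pre-tumor calls of H1f3, H2bc9, H2bc21, H4c3, H4c8 and H4c14. The pre-tumor group rests on 2 samples and its count depended on them: it was 24 without pre-tumor replicate 1 and 13 without replicate 2, with a median difference that stayed between -0.99 and -0.89 whichever sample of any group was left out.

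The mean over all members was 9.58, 9.54 and 9.36 in the normal samples and 8.40, 8.45 and 8.42 in the wild-type lymphomas. It was 8.66, 8.32 and 8.91 in the Dnmt3b-deficient lymphomas and 8.53 and 8.59 in the pre-tumor thymocytes. The lowest normal sample thus lay above the highest of the other groups, the third Dnmt3b-deficient lymphoma. That sample was the highest of its group for 46 of the 56 members, and the second Dnmt3b-deficient lymphoma was the lowest for 49. Among the normal samples replicate 1 was highest for 45 and replicate 3 lowest for 42, while the highest wild-type lymphoma was spread over replicates 1, 2 and 3 (20, 18 and 18 members).

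**Figure D2:**
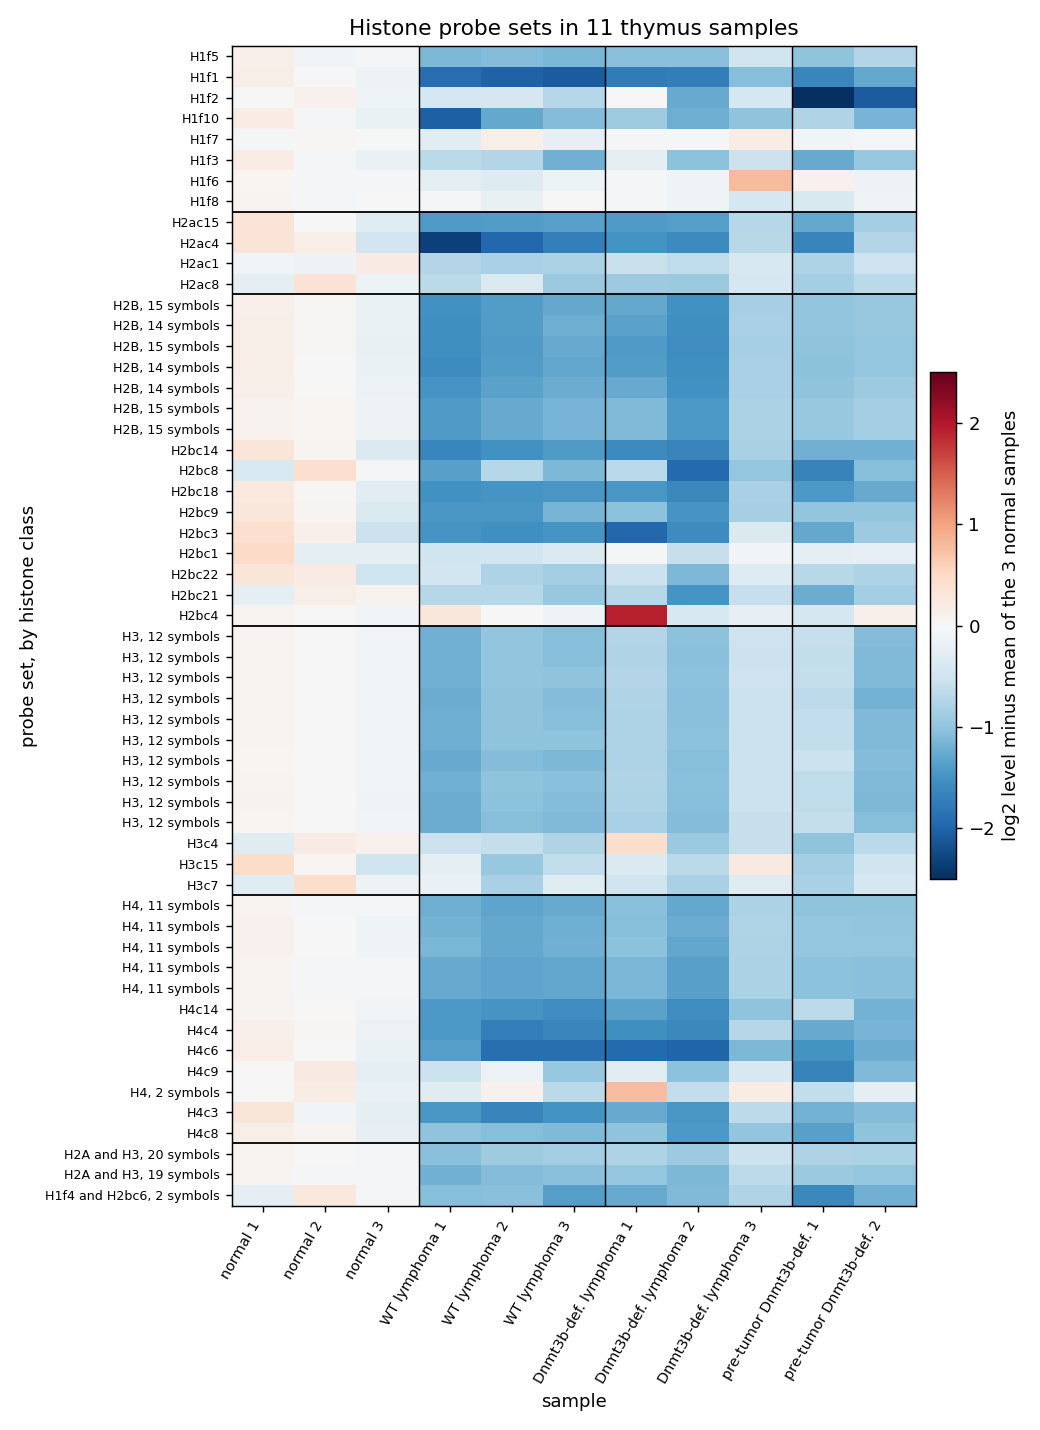
Level of each of the 56 histone probe sets (rows, grouped by class) in each of the 11 samples (columns), as the log2 level minus the mean of the 3 normal samples; blue is lower and red higher than that mean. The bright shared probe sets of H2B, H3 and H4 are blue in all 8 lymphoma and pre-tumor samples, and H2bc4 in the first Dnmt3b-deficient lymphoma is the reddest cell.

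Of the 41 members lower in a comparison, 37 were the same in all 3. H1f3, H2ac4, H2bc21 and H1f10 passed in 2 comparisons, and H1f2, H2bc3, H4c9 and H2ac8 in 1. The 11 that passed in none were H2bc22, H2bc8, H2bc4, H2bc1, H3c7, H3c4, H3c15, H1f6, H1f7, H1f8 and the probe set shared by H4c17 and H4c11. Members that passed mostly had bright signals. In each comparison all 31 members with a mean level above 9 passed, and the median level was 10.9 for members that passed, against 4.75 for the others in the wild-type lymphoma comparison. These 31 include all 22 members of the 4 repeated symbol fields, so they are not separate measurements. A level depends on the probes as well as on the RNA, so this describes the signal and not which gene is expressed more.

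**Figure D3:**
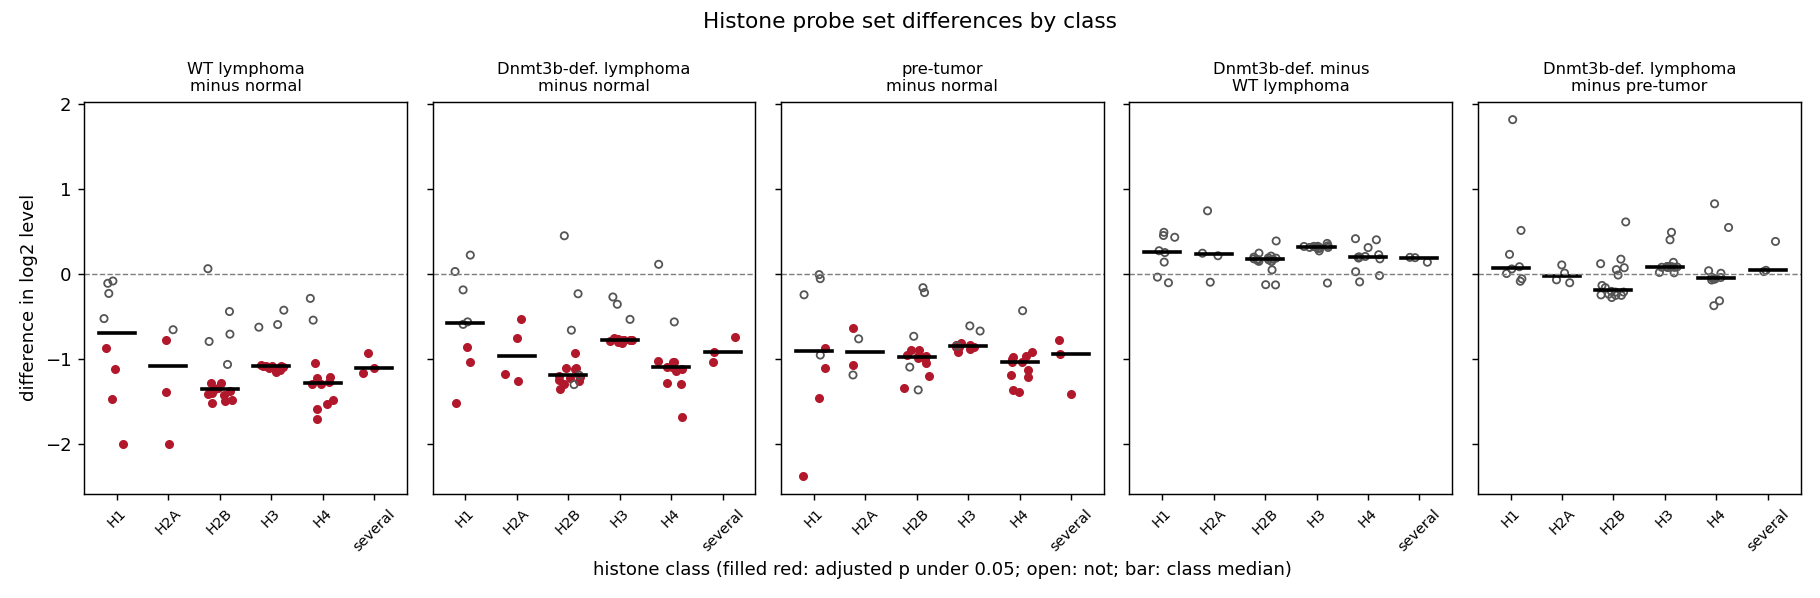
Difference in log2 level (y axis) for each histone probe set by class (x axis) in the 5 comparisons (panels); filled red points passed an adjusted p under 0.05, open points did not, and the bar is the class median. Red points lie only below 0 in the 3 comparisons with normal thymocytes, and there are none in the other 2 comparisons.

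Among linker histones, 4 of 8 probe sets fell in the wild-type lymphomas, 3 in the Dnmt3b-deficient lymphomas and 4 in the pre-tumor samples, with medians of -0.70, -0.58 and -0.91. H1f1, the linker histone H1.1, known from thymus, spleen and testis, read 11.32, 11.18 and 11.05 in the normal samples. Its levels were 9.28, 9.15 and 9.10 in the wild-type lymphomas, 9.43, 9.45 and 10.12 in the Dnmt3b-deficient lymphomas and 9.56 and 9.90 in the pre-tumor samples. All normal samples lay above all others by more than the spread within any group. The difference was -2.0 in the wild-type lymphomas (SE 0.20, limma adjusted p = 0.000926), a 4.01-fold lower level and, with H2ac4, the largest fall of any member there. In Dnmt3b-deficient lymphomas it was -1.51 (SE 0.20, adjusted p = 0.00191) and in the pre-tumor samples -1.46 (SE 0.22, adjusted p = 0.00517).

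H1f5, the linker histone H1.5 and the H1 probe set with the brightest signal, read 12.24, 12.04 and 12.06 in the normal samples, between 10.97 and 11.03 in the wild-type lymphomas, 11.06, 11.07 and 11.61 in the Dnmt3b-deficient lymphomas and 11.10 and 11.39 in the pre-tumor samples. Its falls of 1.11, 0.86 and 0.87 on the log2 scale had adjusted p-values of 0.00300, 0.00711 and 0.0134. The groups did not overlap with the normal samples. In the pre-tumor comparison the adjusted p rose to 0.0672 without pre-tumor replicate 1.

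H1f2, the linker histone H1.2, was lowest in the pre-tumor samples. It read 8.5, 8.59 and 8.38 in the normal samples, 8.05, 8.07 and 7.78 in the wild-type lymphomas, 8.51, 7.23 and 8.05 in the Dnmt3b-deficient lymphomas, and 5.83 and 6.40 in the pre-tumor samples. Both pre-tumor samples lay below every lymphoma, and the first Dnmt3b-deficient lymphoma lay within the normal range. It fell by 2.38 in the pre-tumor samples (SE 0.35, adjusted p = 0.00487), a 5.20-fold lower level and the largest fall there, and the differences of -0.53 and -0.56 in the lymphomas did not pass (adjusted p = 0.318 and 0.297).

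H1f10, a linker histone made outside S phase, passed in both lymphomas (-1.47 with SE 0.25, adjusted p = 0.00674, and -1.04 with SE 0.25, adjusted p = 0.0250) and not in the pre-tumor samples (-0.95, adjusted p = 0.0544). H1f3 passed in the wild-type lymphomas (-0.87, adjusted p = 0.0375) and in the pre-tumor samples (-1.10, adjusted p = 0.0237), with a dim signal that lay between 3.85 and 5.31 over all samples. The germline linker histones stayed near the low end of the scale. H1f6, the testis form H1t, read 4.24 to 4.31 in the normal samples and 3.94 to 4.13 in the wild-type lymphomas, with 1 higher value of 5.06 in the third Dnmt3b-deficient lymphoma. H1f7 of spermatids lay between 4.51 and 4.97 and H1f8 of oocytes between 3.43 and 3.92 over all samples, and neither passed anywhere.

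**Figure D4:**
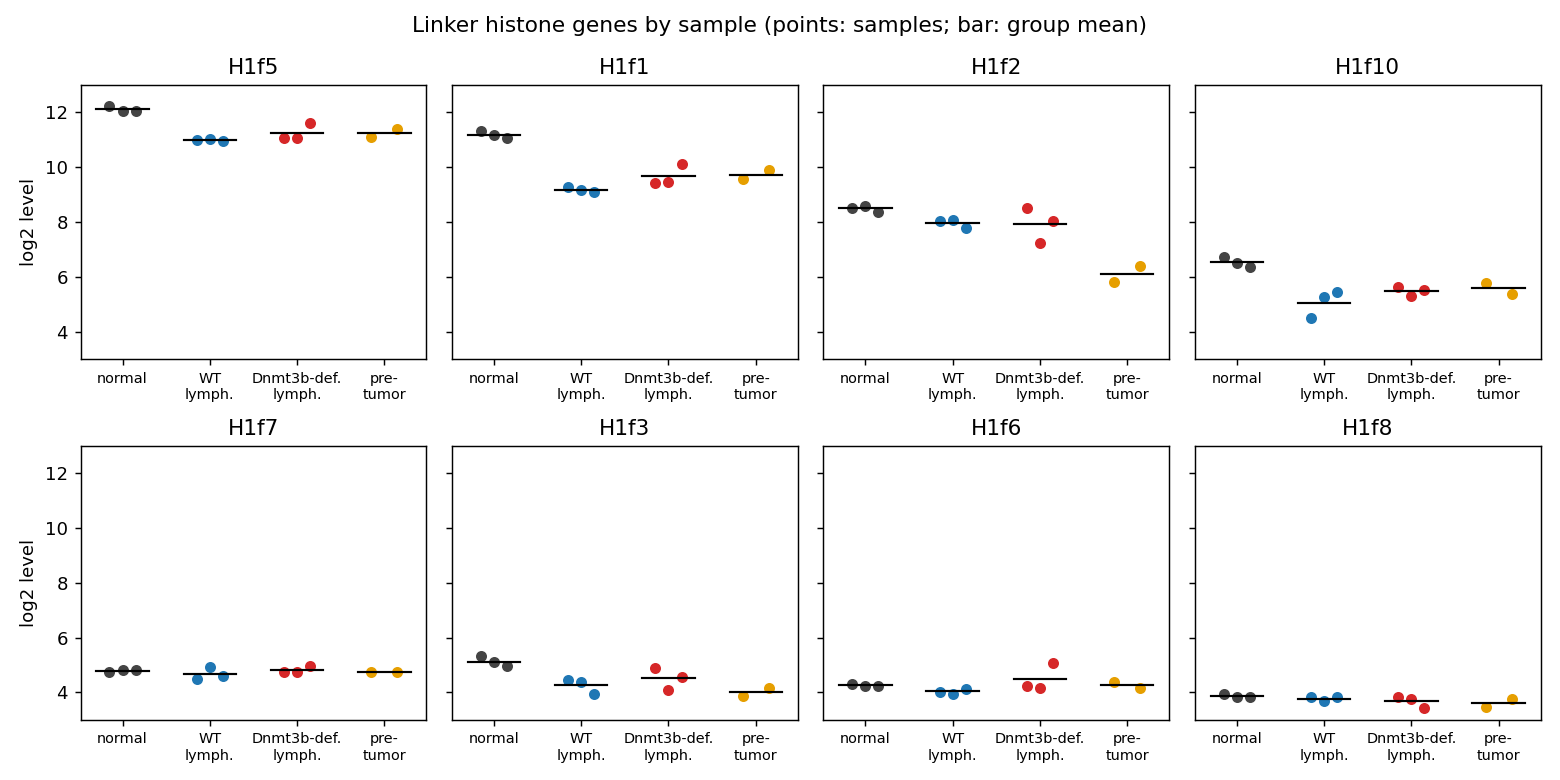
Log2 level (y axis) of the 8 single-symbol linker histone probe sets (panels) in the samples of each group (x axis); points are samples and bars are group means. H1f1 and H1f5 are highest in the 3 normal samples, and H1f2 is lowest in the 2 pre-tumor samples, at 5.83 and 6.40.

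Of the 4 single-symbol H2A probe sets, 3 fell in the wild-type lymphomas, 4 in the Dnmt3b-deficient lymphomas and 2 in the pre-tumor samples, with medians of -1.08, -0.96 and -0.92. H2ac15, the brightest of them, read 11.09, 10.77 and 10.47 in the normal samples, 9.37, 9.38 and 9.42 in the wild-type lymphomas, 9.36, 9.40 and 10.06 in the Dnmt3b-deficient lymphomas and 9.50 and 9.92 in the pre-tumor samples. No sample of another group reached the lowest normal one. The differences were -1.39 (SE 0.23, adjusted p = 0.00579), -1.17 (SE 0.23, adjusted p = 0.0103) and -1.07 (SE 0.26, adjusted p = 0.0255), and the last was lost without normal replicate 1 or 2 and without either pre-tumor sample (adjusted p between 0.0638 and 0.129).

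H2ac4 varied more between the samples of a group. It read 8.61, 8.45 and 7.81 in the normal samples, 5.96, 6.33 and 6.57 in the wild-type lymphomas, 6.79, 6.71 and 7.60 in the Dnmt3b-deficient lymphomas and 6.65 and 7.55 in the pre-tumor samples. The wild-type lymphomas were the lowest group without overlap with any other. The fall of 2.0 there (SE 0.36, adjusted p = 0.00788) was a 4.0-fold lower level. The value in the Dnmt3b-deficient lymphomas (-1.26, SE 0.36, adjusted p = 0.0455) was near the threshold and was lost in 10 of 22 other settings: without normal replicate 1 or 2, without Dnmt3b-deficient replicate 1 or 2, and without any 1 of the wild-type lymphomas, which enter through the shared spread, its adjusted p lay between 0.0597 and 0.142. The pre-tumor value (-1.19, adjusted p = 0.0819) did not pass.

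H2ac1, known as the testis H2A (Hist1h2aa in the older naming), also fell in all 3 comparisons, although the pre-tumor call was lost with only the 2 groups compared (adjusted p = 0.0981). It read 6.88, 6.83 and 7.15 in the normal samples, 6.22, 6.15 and 6.17 in the wild-type lymphomas, 6.40, 6.32 and 6.55 in the Dnmt3b-deficient lymphomas and 6.19 and 6.45 in the pre-tumor samples. The differences of -0.78, -0.53 and -0.64 were smaller than those of H2ac15 (adjusted p = 0.00275, 0.0107 and 0.0102). The dim H2ac8 passed in the Dnmt3b-deficient lymphomas only (-0.75, adjusted p = 0.0483), with samples at the floor in both lymphoma groups, so that its differences are lower limits in size. A further 2 probe sets read 20 and 19 symbols, mostly H2A genes together with H3c4 and the variant H2ax, and both fell in all 3 comparisons, by 0.93 and 1.11 in the wild-type lymphomas.

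H2B had the deepest median falls in the lymphomas, -1.35 and -1.19, and -0.97 in the pre-tumor samples, with 11 of 16 probe sets passing in each. The brightest H2B probe set, which shares 15 symbols, read 11.98, 11.88 and 11.67 in the normal samples, 10.32, 10.45 and 10.57 in the wild-type lymphomas, 10.56, 10.33 and 11.01 in the Dnmt3b-deficient lymphomas and 10.85 and 10.91 in the pre-tumor samples. All 8 other samples lay below the lowest normal sample. It fell by 1.40 (SE 0.17, adjusted p = 0.00179), 1.21 (SE 0.17, adjusted p = 0.00260) and 0.96 (SE 0.19, adjusted p = 0.0126), the last at an adjusted p of 0.0509 or 0.0808 without pre-tumor replicate 1 or 2. Another probe set of the same symbols fell by 1.26 in the Dnmt3b-deficient lymphomas, 1 of the 8 largest falls there (SE 0.19, adjusted p = 0.00325).

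The single-symbol H2B probe sets gave the same picture for bright signals and a mixed one for dim signals. H2bc14 read 10.78, 10.53 and 10.11 in the normal samples, 8.84, 8.96 and 9.05 in the wild-type lymphomas, 8.87, 8.81 and 9.65 in the Dnmt3b-deficient lymphomas and 9.28 and 9.28 in the pre-tumor samples. The groups kept apart from normal, and the differences were -1.52, -1.36 and -1.20 (SE 0.25, 0.25 and 0.28, adjusted p = 0.00541, 0.00778 and 0.0226), the last lost without normal replicate 1 or 2 or either pre-tumor sample (adjusted p between 0.0593 and 0.130). H2bc18, from the cluster on chromosome 3, fell by 1.48, 1.29 and 1.34 (adjusted p = 0.00353, 0.00532 and 0.00936), the last at an adjusted p of 0.0574 without pre-tumor replicate 2. H2bc9 fell by 1.36, 1.11 and 0.98 (adjusted p = 0.00430, 0.00856 and 0.0248), and its calls were not followed singly with samples left out.

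H2bc3 read 8.06, 7.76 and 7.10 in the normal samples, 6.16, 6.11 and 6.16 in the wild-type lymphomas, 5.67, 6.07 and 7.27 in the Dnmt3b-deficient lymphomas and 6.36 and 6.73 in the pre-tumor samples. In the third Dnmt3b-deficient lymphoma it stood among the normal samples. It passed in the wild-type lymphomas (-1.5, SE 0.42, adjusted p = 0.0422), a call lost in 10 of 22 other settings (without normal replicate 1 or 2, any 1 wild-type lymphoma, Dnmt3b-deficient replicate 2 or either pre-tumor sample its adjusted p lay between 0.0600 and 0.121), and not elsewhere (-1.30, adjusted p = 0.0688, and -1.10, adjusted p = 0.157). H2bc21, the H2B gene of the chromosome 3 cluster known from olfactory neurons, fell in the Dnmt3b-deficient lymphomas (-0.92, adjusted p = 0.0330) and pre-tumor thymocytes (-1.04, adjusted p = 0.0334). In the wild-type lymphomas its difference was near these and narrowly missed the threshold (-0.79, adjusted p = 0.0578). They too lay below every normal sample. The signal was dim, between 3.68 and 5.29 over all samples.

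H2bc8 was bright enough to read yet missed the threshold, with 8.99, 9.79 and 9.31 in the normal samples and 7.42 to 8.70 in all other samples. Its differences were -1.07, -1.19 and -1.37 (adjusted p = 0.0949, 0.0669 and 0.0620), and no other sample reached the lowest normal one. H2bc1, the testis H2B (Hist1h2ba), read 6.28, 5.57 and 5.56 in the normal samples and 5.22 to 5.75 elsewhere, and it passed nowhere. The wild-type lymphomas, at 5.30, 5.33 and 5.45, lay below every normal sample (-0.44, adjusted p = 0.224). The differences of -0.23 in the Dnmt3b-deficient lymphomas and -0.22 in the pre-tumor samples rested on the first normal sample. H2bc4 read 5.73 in the first Dnmt3b-deficient lymphoma and 3.34 to 4.07 in the other 10 samples. None of its differences passed.

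The H3 probe sets were nearly 1 measurement: 10 of 13 share the same 12 symbols, and all 10 fell in each comparison. The brightest read 12.86, 12.80 and 12.73 in the normal samples, 11.60, 11.81 and 11.74 in the wild-type lymphomas, 12.06, 11.77 and 12.28 in the Dnmt3b-deficient lymphomas and 12.22 and 11.70 in the pre-tumor samples. The normal samples lay above all others, and the pre-tumor pair stood apart from each other by more than the normal samples did. The falls were 1.08 (SE 0.16, adjusted p = 0.00390), 0.76 (SE 0.16, adjusted p = 0.0147) and 0.84 (SE 0.18, adjusted p = 0.0177). The fall in the Dnmt3b-deficient lymphomas had an adjusted p of 0.0504 without normal replicate 1, and that in the pre-tumor samples 0.0505 without normal replicate 2 and 0.130 without pre-tumor replicate 2. The class medians were -1.09, -0.78 and -0.85.

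None of the 3 single-symbol H3 probe sets passed. H3c4 read 6.44, 6.95 and 6.85 in the normal samples and 5.73 to 6.21 in the other samples except 7.18 in the first Dnmt3b-deficient lymphoma. H3c15 (-0.60, -0.27 and -0.67) and H3c7 (-0.43, -0.54 and -0.61) had lower means in each group and did not pass. In both, the pre-tumor samples lay below every normal sample, and the lymphomas overlapped with the normal samples. H3c7 was at the floor in 1 sample of each group other than normal, so its differences are lower limits in size. So for H3 the result rests on the shared probe sets.

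H4 gave the smallest adjusted p-values of the members in all 3 comparisons with normal thymocytes. The brightest H4 probe set, shared by 11 symbols, read 12.45, 12.34 and 12.34 in the normal samples, 11.15, 11.06 and 11.11 in the wild-type lymphomas, 11.33, 11.09 and 11.58 in the Dnmt3b-deficient lymphomas and 11.37 and 11.38 in the pre-tumor samples. The groups were separate from normal, and the Dnmt3b-deficient lymphomas varied most among themselves (SD 0.24, against 0.04 in the wild-type lymphomas). Its falls were 1.27 (SE 0.11, adjusted p = 0.000663), 1.04 (SE 0.11, adjusted p = 0.000908) and 1.00 (SE 0.12, adjusted p = 0.00273). By class, 10, 10 and 11 of 12 probe sets fell, with medians of -1.28, -1.10 and -1.04.

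H4c6 had the largest fall of the single H4 genes in both lymphoma groups, and H4c9 in the pre-tumor samples. It read 10.86, 10.71 and 10.53 in the normal samples, 9.33, 8.82 and 8.82 in the wild-type lymphomas, 8.77, 8.71 and 9.57 in the Dnmt3b-deficient lymphomas and 9.20 and 9.46 in the pre-tumor samples. Every other sample lay below the lowest normal one, and the third Dnmt3b-deficient lymphoma came closest. The differences were -1.71, -1.69 and -1.37 (SE 0.26, 0.26 and 0.29, adjusted p = 0.00385, 0.00365 and 0.0156), and -1.69 was the largest fall of any member in the Dnmt3b-deficient lymphomas, 3.22-fold. The pre-tumor value missed the threshold without pre-tumor replicate 1 (adjusted p = 0.0723) or 2 (adjusted p = 0.0762).

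H4c4 read 10.88, 10.78 and 10.62 in the normal samples, 9.31, 9.05 and 9.13 in the wild-type lymphomas, 9.23, 9.15 and 10.05 in the Dnmt3b-deficient lymphomas and 9.49 and 9.60 in the pre-tumor samples, with differences of -1.59, -1.28 and -1.21 (adjusted p = 0.00317, 0.00653 and 0.0154). The last had an adjusted p of 0.0644 or 0.0886 without pre-tumor replicate 1 or 2. H4c14, from the chromosome 3 cluster, fell by 1.48, 1.30 and 0.92 (adjusted p = 0.00135, 0.00186 and 0.0137), and H4c3 by 1.53, 1.12 and 1.13 (adjusted p = 0.00312, 0.00960 and 0.0171). H4 genes of both clusters were therefore lower. H4c8 fell by 1.05, 1.15 and 1.18 (adjusted p = 0.00378, 0.00240 and 0.00501). The pre-tumor calls of H4c14, H4c3 and H4c8 were not followed singly with samples left out.

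H4c9, like H1f2, was lowest in the pre-tumor samples. It read 7.91, 8.13 and 7.67 in the normal samples, 7.37, 7.76 and 6.95 in the wild-type lymphomas, 7.64, 6.87 and 7.50 in the Dnmt3b-deficient lymphomas and 6.24 and 6.79 in the pre-tumor samples. It passed in the pre-tumor samples only (-1.39, SE 0.32, adjusted p = 0.0217), with -0.54 and -0.56 in the lymphomas (adjusted p = 0.255 and 0.247), and the pre-tumor call was lost without normal replicate 1 or 2 or either pre-tumor sample (adjusted p between 0.0542 and 0.111). The probe set shared by H2bc6 and H1f4, a core and a linker histone gene, fell by 1.17, 1.03 and 1.41 (adjusted p = 0.00536, 0.00800 and 0.00524). The last, among the larger falls in the pre-tumor samples, was lost with only the 2 groups compared (adjusted p = 0.0551). The probe set shared by H4c17 and H4c11 read 7.48 in the first Dnmt3b-deficient lymphoma and 6.04 to 6.89 in the others, and passed nowhere.

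The comparison of Dnmt3b-deficient with wild-type lymphomas asks whether loss of Dnmt3b goes with a change in histone mRNA within MYC tumors. No histone probe set passed the test in limma, beside 2 of 28939 probe sets in all, which is 0.00691%. At an unadjusted p under 0.05 there was 1 of 56, beside 6.30% of all probe sets. The difference was positive for 48 of 56 members, beside 45.3% of all probe sets, with a median of 0.20. Shared probe sets repeat in this count, and of the single-symbol members 22 of 30 were positive, also with a median of 0.20. The median over all members depended on which Dnmt3b-deficient lymphoma was counted: it was 0.06 without replicate 3 and 0.33 without replicate 2. The S phase genes described below leaned the same way, with 26 of 28 differences positive, a median of 0.18 and none passing. In 7 members every Dnmt3b-deficient sample lay above every wild-type one, and these were H1f1, H1f5, H1f6, H2ac1, H2ac4, H4c3 and 1 shared H3 probe set, beside 4.64% of all probe sets.

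The largest differences were H2ac4 (0.74, SE 0.36, adjusted p = 0.829), H1f1 (0.49, SE 0.20, unadjusted p = 0.0387, adjusted p = 0.764), H1f6 (0.45, SE 0.22, adjusted p = 0.829) and H1f10 (0.43, SE 0.25, adjusted p = 0.887). None of them passed, and a p that misses the threshold does not show that the groups are alike. Neutrophil marker genes moved across the same samples: the mean of 8 markers was 6.68, 6.52 and 4.22 in the wild-type lymphomas and 4.10, 6.13 and 4.40 in the Dnmt3b-deficient lymphomas, against 4.93 to 5.40 in the normal samples and 4.02 to 4.07 in the pre-tumor samples. The second Dnmt3b-deficient lymphoma was the highest of its group in these markers and the lowest in histones, whereas the wild-type lymphomas differed in the markers and had histone means of 8.40, 8.45 and 8.42. None of the 8 markers passed in any comparison, none was at the floor on all arrays, and their part in the histone values was not tested.

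Dnmt3b-deficient lymphomas and pre-tumor thymocytes share the labelled genotype and differ in stage and in sorting, which cannot be told apart. No histone probe set passed in limma, beside 20 of 28939 (0.0691%), and 2 of 56 had an unadjusted p under 0.05, beside 9.43%. The median difference was 0.02, with 33 of 56 positive, beside 47.9% of all probe sets. In 2 members, H1f2 and H4c9, every lymphoma lay above every pre-tumor sample, beside 13.1%. H1f2 was higher in the lymphomas by 1.81 (SE 0.35, unadjusted p = 0.00102, adjusted p = 0.156), a 3.51-fold difference with no overlap between 7.23 as the lowest lymphoma and 6.40 as the higher pre-tumor sample. Without the second Dnmt3b-deficient lymphoma this difference was 2.16 and passed (adjusted p = 0.0428). H4c9 was higher by 0.82 (SE 0.32, adjusted p = 0.475), H2bc4 by 0.61 (SE 0.64, adjusted p = 0.907) through the 1 sample at 5.73, and the probe set shared by H4c17 and H4c11 by 0.55 (SE 0.40, adjusted p = 0.783).

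Genes that make and handle histone mRNA moved in both directions. Over all tested probe sets 9.58% to 9.70% rose and 9.88% to 10.5% fell in the comparisons with normal samples, and the counts of this and the following lists stand beside those shares without a test. Of 24 measured genes of histone mRNA transcription and processing, 6 rose and 4 fell in the wild-type lymphomas, 7 and 4 did so in the Dnmt3b-deficient lymphomas, and 8 and 5 in the pre-tumor samples, with medians of 0.30, 0.22 and 0.37. Npat, the transcription factor of histone genes, read 4.47, 4.43 and 4.84 in the normal samples, 6.49, 6.01 and 6.37 in the wild-type lymphomas, 6.21, 6.82 and 5.86 in the Dnmt3b-deficient lymphomas and 6.77 and 7.15 in the pre-tumor samples. It rose by 1.71, 1.72 and 2.38 (SE 0.26, 0.26 and 0.29, adjusted p = 0.00427, 0.00374 and 0.00288), against the direction of the histone probe sets. Cpsf2 (1.21, 1.36 and 1.51) and Cpsf3 (0.87, 0.99 and 0.88) of the cleavage machinery rose in all 3, as did Eri1, the exonuclease that trims histone mRNA ends (0.65, 0.59 and 0.90).

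Slbp, the stem-loop binding protein, read 8.21, 7.63 and 7.97 in the normal samples, 8.13 to 8.54 in the wild-type lymphomas, 8.02 to 8.23 in the Dnmt3b-deficient lymphomas and 8.23 and 8.73 in the pre-tumor samples. Its differences of 0.36, 0.17 and 0.54 did not pass (adjusted p = 0.257, 0.671 and 0.128). Casp8ap2, a partner of Npat in histone gene expression, rose in the pre-tumor samples (1.21, adjusted p = 0.0411) and not in the lymphomas (0.69 and 0.50, adjusted p = 0.164 and 0.336). Mif4gd, which binds Slbp in translation of histone mRNA, fell by 1.5, 0.82 and 0.93 (adjusted p = 0.00154, 0.0144 and 0.0162), and Cdk2 by 0.52, 0.60 and 0.58 (adjusted p = 0.0163, 0.00856 and 0.0173).

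Of 20 measured histone chaperones, which carry and deposit histones, 8 rose in each comparison and 3, 3 and 2 fell. Nap1l1, an H2A-H2B chaperone, rose by 2.86, 2.71 and 2.52 (adjusted p = 0.000760, 0.000638 and 0.00221) and Supt16, a subunit of the FACT complex, by 2.55, 2.62 and 2.74 (adjusted p = 0.00576, 0.00473 and 0.00827). For Supt16 the normal samples varied widely (7.06, 5.82 and 7.45), and all other samples lay at 8.84 to 9.76. Nasp, an H1 and H3-H4 chaperone, rose by 1.53, 1.68 and 1.54 and Hat1, which acetylates new H4, by 1.52, 1.75 and 1.74. Ubn1, of the HIRA complex, fell by 1.10, 1.11 and 0.83.

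S phase genes outside the histone clusters went both ways, and of 28 measured genes 8, 10 and 9 rose and 4, 2 and 2 fell, with medians of 0.03, 0.22 and 0.19. Chek1 rose by 2.67, 2.96 and 3.06 and the polymerase subunit Pola1 by 2.58, 2.69 and 3.17, while the transcription factor E2f2 fell by 1.95, 1.83 and 1.29. The normal samples varied widely for Chek1 (5.17, 3.98 and 5.35) and Pola1 (4.73, 4.36 and 5.61). All other samples lay at 7.21 to 8.15 for Chek1 and at 6.97 to 8.37 for Pola1. Pcna, the clamp of the replication fork, did not pass (0.07, 0.11 and 0.24). By these counts the S phase genes moved in both directions and the histone members in 1.

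Replacement variants, which are made largely outside S phase and mostly with a poly(A) tail, were lower where they moved: 3 of 10 fell in each comparison and none rose. The list medians were -0.08, -0.16 and -0.12. H3f3a lay between 3.38 and 3.82 over all samples, near the floor, with little room to fall. H2az2 fell by 1.68, 2.13 and 1.53 (adjusted p = 0.000454, 0.000161 and 0.00140), H2ax by 1.11, 1.09 and 0.69 (adjusted p = 0.00500, 0.00487 and 0.0474) and Macroh2a1 by 0.65, 0.73 and 0.60. Of these, H2ax is also among the symbols of the shared H2A probe sets of 19 and 20 symbols, which are histone members. H2az1, the sister gene of H2az2, read 10.26 to 10.67 over all samples and did not pass (-0.12, -0.09 and -0.12). H3f3b was read only by probe sets with several symbols and is not given.

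A list of 13 RNAs that lack a poly(A) tail and are not histone mRNAs was set up after the histone values were seen. Of these, Rnu6 was at the floor on all arrays and could not fall. In wild-type lymphomas 3 of 13 fell, in the Dnmt3b-deficient lymphomas 4 and in the pre-tumor samples 7, the others did not pass and none rose, beside the 9.88% to 10.5% of all probe sets that fell, with medians of -0.79, -0.86 and -1.29 beside -1.12, -0.92 and -0.95 for the histone members. Rny3, a Y RNA, read 11.18, 11.14 and 10.03 in the normal samples, 8.81, 8.60 and 9.15 in the wild-type lymphomas, 8.22, 8.54 and 9.41 in the Dnmt3b-deficient lymphomas and 8.71 and 8.28 in the pre-tumor samples, and fell by 1.93, 2.06 and 2.29 (adjusted p = 0.0152, 0.0108 and 0.0134). Rn7sk, which restrains the elongation factor P-TEFb, fell by 0.68, 0.79 and 0.67 (adjusted p = 0.0170, 0.00851 and 0.0285), and Rnu12 of the minor spliceosome by 1.45, 1.35 and 1.57. Terc, the telomerase RNA, did not pass (0.06, 0.12 and 0.14). How the cDNA was primed and how far RNAs without a tail were kept in each preparation are not given in the sources used here, and their part in the histone values was not tested.

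**Figure D5:**
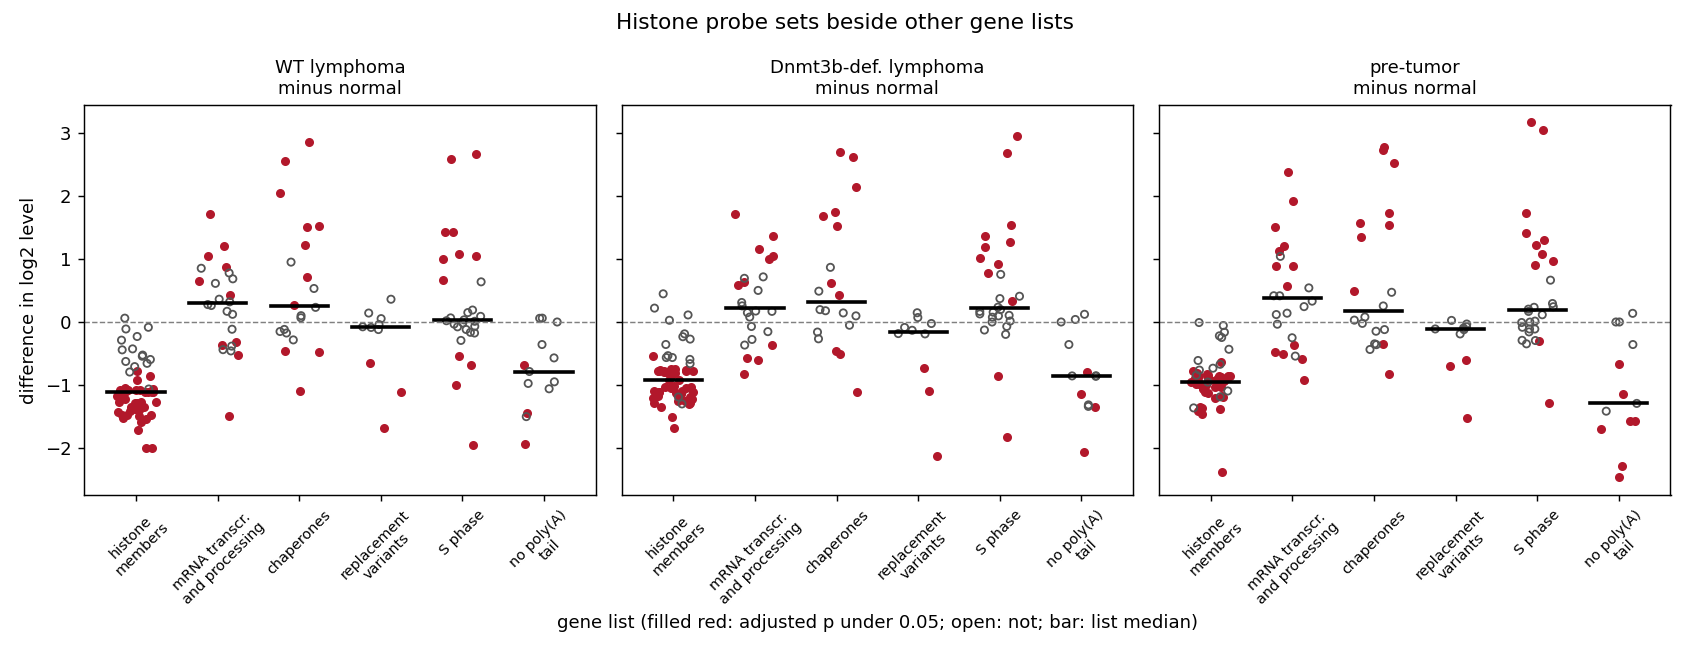
Difference in log2 level (y axis) from normal thymocytes in the 3 MYC-transgenic groups (panels) for the histone probe sets and 5 other gene lists (x axis); filled red points passed an adjusted p under 0.05, open points did not, and bars are list medians. The histone members have no filled point above 0, and the lists of processing factors, chaperones and S phase genes have filled points on both sides.

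Cell type markers were set beside these values. The thymocyte list lay lower outside the normal samples, with a summed log2 level of 9 markers of 88.7 to 91.8 in the normal samples, 75.8 to 79.0 in the wild-type lymphomas, 75.8 to 77.4 in the Dnmt3b-deficient lymphomas and 83.5 to 86.7 in the pre-tumor samples. Of these markers 6, 5 and 3 of 9 fell, Cd4, Cd3e and Cd3g in each comparison, and none rose. No marker of this list passed between Dnmt3b-deficient lymphomas and pre-tumor samples, and pre-tumor samples were not compared with wild-type lymphomas. Macrophage markers summed to 53.8 to 56.5, 49.1 to 64.3, 44.8 to 53.3 and 46.2 to 48.1 in the 4 groups, with C1qa and C1qb lower in each comparison and Itgam higher in the wild-type lymphomas. Of the 10 measured, 8 had a positive difference from normal in the wild-type lymphomas, 2 in the Dnmt3b-deficient lymphomas and 2 in the pre-tumor samples. Of the B cell, erythroid and stromal lists, 6, 3 and 10 markers were measured, at most 3 of a list passed in any comparison, and of all markers Dcn alone was at the floor on all arrays. The part of any of these lists in the histone values was not tested.

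Outside the rule, the 5 named single-gene probe sets whose level over the 11 arrays was most like the mean of the 54 histone members above the floor were Ctns (Pearson r 0.981), Vrk3 (0.975), Myo18a (0.974), Ifi35 (0.973) and Arf1 (0.973). The samples share their groups, so such a correlation mostly follows the step between normal and the other samples. Ctns, the lysosomal cystine transporter, read 6.74, 6.61 and 6.52 in the normal samples, 5.46, 5.58 and 5.5 in the wild-type lymphomas, 5.43, 5.30 and 5.92 in the Dnmt3b-deficient lymphomas and 5.54 and 5.57 in the pre-tumor samples. As for most histone probe sets, the third Dnmt3b-deficient lymphoma was the highest of its group and the second the lowest.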

How the data were processed

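RNA of 11 samples (3 normal thymocyte, 3 wild-type lymphoma, 3 Dnmt3b-deficient lymphoma and 2 pre-tumor thymocyte samples) was measured on 1 array each. The authors deposited log2 values; per the submitters' processing notes they used Partek and RMA, with no versions named. No genome build is given in the sources used here. No further normalization was applied. Names came from the platform's gene annotation, and 6573 probe sets with the lowest IDs and no annotation were left out as probable controls. All 28939 others were fitted together by lmFit and eBayes of limma 3.58.1, R 4.3.3 (1 mean per group, 7 residual and 0.46 prior degrees of freedom). Every adjusted p comes from limma with Benjamini-Hochberg adjustment over these probe sets, and differences are group means of log2 levels, the first group minus the second. The fit was tested on simulated data.

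The members and lists were chosen with earlier results of these data known, and the list of RNAs without a poly(A) tail was set up after the histone values were seen. Named are, per class, the brightest probe set; per comparison, up to 8 members with the largest rise and fall past the threshold without overlap, or where fewer than 3 passed the 4 largest differences; and genes set by name, with further members described by class. Promoter letters were searched on both strands of RefSeq sequences. Alternatives were quantile normalization, median centring, no moderation, only the 2 groups compared, the replicate number as a block, a fold of at least 2, other filters and units, and each sample left out. The labels state no pairing of samples by replicate number, and precision is limited by the number of arrays.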

Additional observations from a re-analysis of the deposited data

How the results depend on the processing

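The counts of 41 members lower than in normal samples were smaller where fewer or stricter units were counted. With only probe sets of 1 symbol, or 1 unit per gene, the count was 16 of 30 in all 3 comparisons, and the wild-type median became -0.96. With 1 unit per symbol field, added after seeing the data, it was 23 of 38 in all 3. With a fold of at least 2 it was 25 for Dnmt3b-deficient lymphomas and 16 for pre-tumor samples, and with only the 2 groups compared it was 18 in pre-tumor samples. Leaving out 1 sample gave 39 to 42 in wild-type lymphomas, 37 to 41 for Dnmt3b-deficient lymphomas and 13 to 42 for pre-tumor samples. No member passed between the lymphomas in any of 25 settings, and leaving out samples gave 0 to 1 between Dnmt3b-deficient lymphomas and pre-tumor samples, the 1 being H1f2 without Dnmt3b-deficient replicate 2.

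The replicate numbers do not come with a stated pairing, and deviations of same-numbered samples correlated between -0.33 and 0.32, with 3 of 15 over 0.1. Among differently numbered samples 13 of 30 were over 0.1. Deviations from the mean of such small groups constrain each other, so these correlations cannot decide on a pairing. With the replicate block the counts were 39, 37 and 23 against normal, and 0 in both other comparisons.

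Leaving out 1 sample moved the median over the members from -1.05 to -0.79 in Dnmt3b-deficient lymphomas against normal, from 0.06 to 0.33 against wild-type lymphomas and from -0.10 to 0.14 against pre-tumor samples. Over 56 named values, 1160 of 1232 value and setting pairs kept direction and side of the threshold, 62 lost a call and 1 gained it. In 9 the direction turned, all of them differences that never passed. H1f6 in pre-tumor samples turned to 0.092 with quantile normalization, 0.070 with median centring and 0.099 with the replicate block, and ranged from -0.12 to 0.10 with 1 sample left out. H1f6 in Dnmt3b-deficient lymphomas ranged from -0.066 to 0.39, and H2bc1 from -0.36 to 0.0049 there and from -0.34 to 0.019 in pre-tumor samples. H2bc4 between Dnmt3b-deficient lymphomas and pre-tumor samples ranged from -0.14 to 1.04. The number of arrays limits the precision.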
